A study of Mus musculus with 24 samples.

Results

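The genes described here encode enzymes and partner proteins that cut, trim or rejoin DNA, and they were compared between cardiac ventricle and brain cortex and between wild-type and Tatdn1-deficient mice. The 41 genes were chosen by name and not by their measured values, though with earlier results of these data known. They comprise mitochondrial and apoptotic nucleases, extracellular and lysosomal DNases, enzymes that remove cytosolic DNA or nucleotides, factors of break sensing and end resection, structure-specific endonucleases, abasic site endonucleases, mismatch repair factors and lagging-strand factors. Each gene was read from the probe set that carried its symbol alone and, where there were several, from that with the highest mean over the 24 arrays. Of the 41 genes, 38 were measured, each by 1 probe set, among 19505 genes with such a probe set. Dnase2a, Trex1 and Rbbp8 were not analysed here.

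DNA nucleases act in settings that are kept apart in the cell. ENDOG and EXOG sit in mitochondria, the caspase-activated DNase DFFB fragments nuclear DNA during apoptosis, secreted and lysosomal DNases clear extracellular or engulfed DNA, and nuclear enzymes such as FEN1, MUS81 and the XPF and XPG nucleases process intermediates of replication and repair. Mismatch repair corrects replication errors through proteins that find the mismatch and others that nick the strand. Cardiomyocytes and neurons no longer divide in the adult, while they keep mitochondrial DNA, base damage and strand breaks under repair throughout life. TATDN1 is the mammalian ortholog of the bacterial protein TatD, for which a DNase activity has been proposed, and the comparison of the genotypes asks whether its loss goes with other transcript levels of these genes.

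Transcripts were read from 24 samples on the Mouse Clariom S HT array, from 12 mice aged 2 months on a C57/B6 background. There were 6 Tatdn1+/+ mice (tatd+/+, wild type) and 6 Tatdn1-/- mice (tatd-/-), 3 males and 3 females of each genotype, and a ventricle and a cortex array with the same mouse code were read as the same animal. The knockout was a whole-body one: exon 3 of Tatdn1 had been flanked by loxP sites, the neomycin cassette removed with a ROSA-FLPe line, exon 3 deleted with a CAG-Cre line whose promoter is active in nearly all cells, and Cre bred out afterwards. The number that opens a mouse code never occurred in both genotypes, and as its meaning was not stated, a litter or cage it may stand for and the genotype cannot be told apart. Among the Tatdn1+/+ mice males and females never shared this number either, so there it cannot be told apart from sex. Values are log2 signals after robust multi-array averaging (RMA), and a difference of 1 on this scale is a doubling. A gene was called where the adjusted p of limma over all 22206 probe sets was under 0.05. A value was counted as above background where it passed the 95th percentile of the 23 antigenomic control entries of that array. This threshold lay between 3.93 and 4.73 in Tatdn1+/+ ventricle and between 3.79 and 4.46 in Tatdn1-/- ventricle. In cortex it lay between 3.37 and 4.12, apart from the array of Tatdn1-/- male M78-1 at 4.83. Counts above background were thus taken at unlike thresholds in the tissues and, in ventricle, in the genotypes.

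The Tatdn1 probe set was the check of the genotype labels. In ventricle it ranged from 6.53 to 7.15 (median 6.87) in the Tatdn1+/+ mice and from 4.97 to 6.03 (median 5.40) in the Tatdn1-/- mice, lower by a log2 difference of -1.36 (SE 0.18, adjusted p = 0.0156). In cortex it ranged from 5.29 to 6.15 (median 5.81) and from 4.44 to 5.31 (median 5.11), and the difference of -0.78 (SE 0.17) did not pass the test (adjusted p = 0.168). The sources used here do not give the exons its probes cover, and the signal left in the Tatdn1-/- mice cannot be assigned to a transcript with or without exon 3. All 10 cardiomyocyte markers were above background on every ventricle array and all 9 neuron markers on every cortex array. The cortex array of Tatdn1-/- male M78-1 stood apart, with a median correlation of 0.9716 with the other cortex arrays against 0.9768 to 0.9919 for every other array with its tissue. The 0.9768 belonged to the ventricle array of Tatdn1+/+ male M75-0, which also had the highest threshold in ventricle (4.73). The other ventricle arrays lay between 0.9802 and 0.9852.

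Many of these transcripts were near the floor of the array in both tissues. Of the 38 measured members, 12 were never above background on any array (31.58%, against 41.03% of all probe sets tested), 8 were above it on all 24 (21.05%, against 25.04%) and 18 on some. Those never above background were the secreted and lysosomal DNases Dnase1, Dnase1l2, Dnase1l3 and Dnase2b, the caspase-activated DNase gene Dffb, the exonuclease gene Trex2, the resection nucleases Exo1 and Dna2, the junction nucleases Eme1 and Gen1, and the replication genes Lig1 and Pold1. The 8 members above background on every array were Aifm1, Dffa, Rad50, Nbn, Ercc4, Ercc5, Pcna and Pold3. All 13 measured genes of a list of proliferating cells were likewise never above background in any of the 4 groups. A level under background bounds the transcript from above and does not show that it is absent.

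With the values as deposited, ventricle and cortex differed in about as large a share of these genes as of all genes. In the Tatdn1+/+ mice, 11 of the 38 members were higher and 10 lower in ventricle (55.26%), where 29.3% of all probe sets were called higher and 26.3% lower (55.53%). In the Tatdn1-/- mice 14 were higher and 6 lower (52.63%), beside 29.8% of all probe sets higher and 25.3% lower (55.12%). In both genotypes the same 10 members were called higher (Endog, Aifm1, Dnase1l1, Samhd1, Nbn, Mus81, Apex2, Pcna, Rfc1 and Rnaseh2b) and the same 6 lower (Exog, Slx4, Msh3, Pms2, Fen1 and Pold3), and none was called in opposite directions. The balance of directions depended on the scaling: with each array centred on its median, which moved the median difference of all probe sets from 0.09 to 0.50 in the Tatdn1+/+ mice and from 0.09 to 0.42 in the Tatdn1-/- mice, 21 members were higher and 5 lower in the former and 22 higher and 5 lower in the latter. The share of higher calls among all calls moved with it, from 52.7% to 75.72% and from 54.06% to 73.99%. The number of calls moved too. Over the alternatives other than leaving out a mouse, 18 to 26 members were called in Tatdn1+/+ and 19 to 27 in Tatdn1-/- mice. Over the same alternatives, 11292 to 17807 of all probe sets were called in Tatdn1+/+ and 11270 to 16458 in Tatdn1-/- mice. The shares of members and of all probe sets were compared for the values as deposited only. The 14 members that kept their call in both genotypes under every setting tried were 9 higher ones, all of the 10 above but Mus81, and 5 lower ones, all of the 6 above but Msh3. How many of all probe sets were called in both genotypes or kept their call throughout was not counted. Nor was it counted how many did not overlap between the tissues, so none of these is given as a trait of the members.

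**Figure D1:**
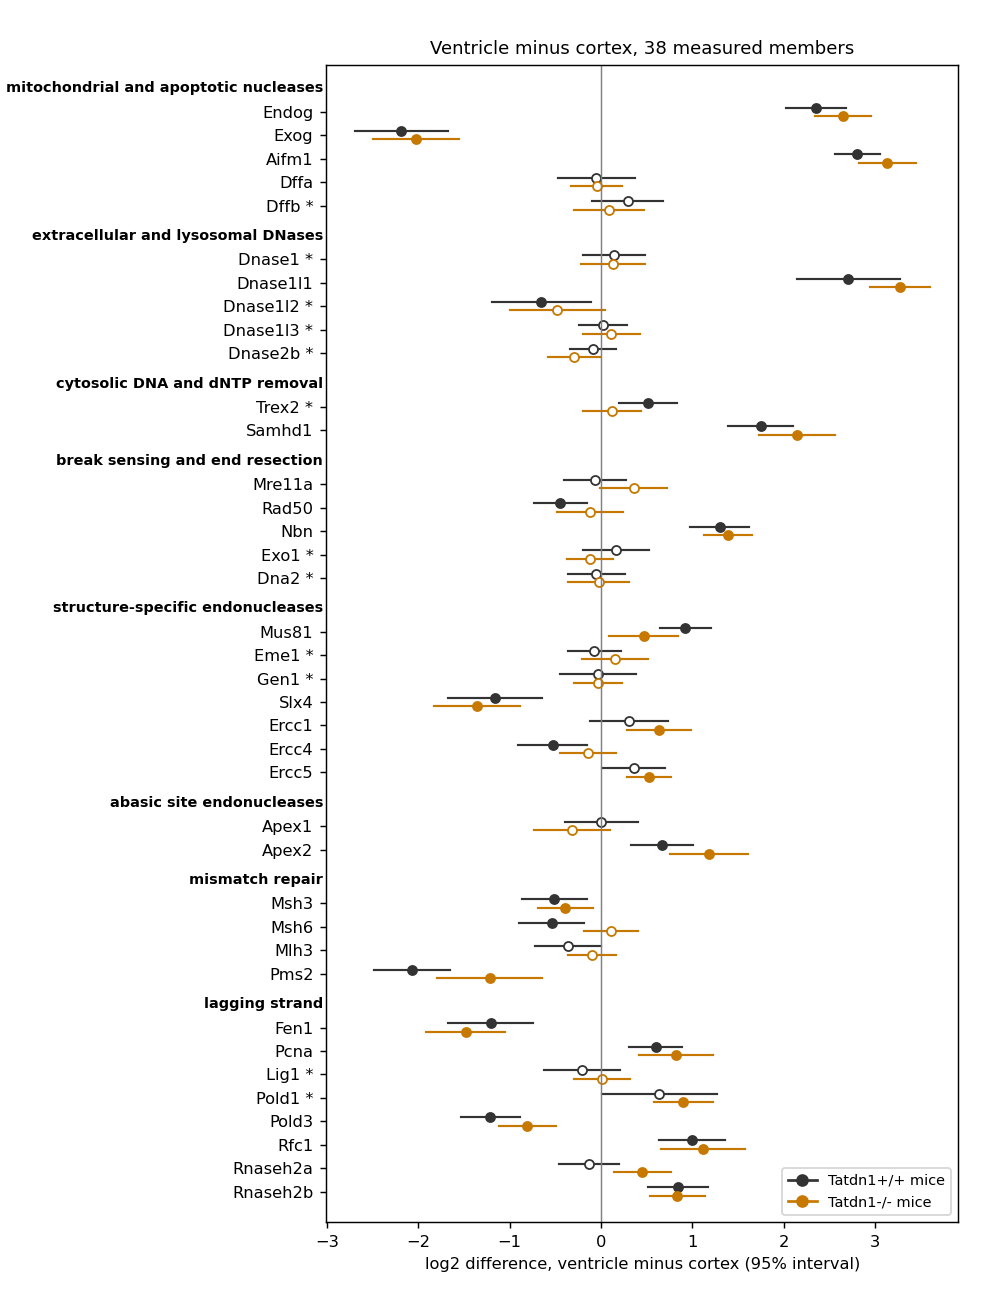
Log2 difference between ventricle and cortex (x axis, ventricle minus cortex) for the 38 measured members in Tatdn1+/+ (dark) and Tatdn1-/- (orange) mice, 6 arrays per group; points are means, lines 95% intervals of the limma fit, filled points adjusted p under 0.05, and an asterisk marks the 12 members never above background. Differences ran from -2.19 for Exog to 2.81 for Aifm1 in the Tatdn1+/+ mice, and the points of both genotypes fall on the same side of 0 for every member called in both.

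Among the mitochondrial and apoptotic nucleases, the related genes Endog and Exog lay on opposite sides of the comparison. Endog, for endonuclease G of the mitochondrial intermembrane space, ranged from 5.90 to 6.09 (median 6.03) in Tatdn1+/+ ventricle and from 3.14 to 4.05 (median 3.76) in Tatdn1+/+ cortex, where 3 of 6 arrays were above background. The levels in Tatdn1-/- mice were 5.87 to 6.44 (median 6.11) in ventricle and 3.05 to 3.78 (median 3.47) in cortex, where 2 of 6 arrays were above background. Every ventricle array thus lay above every cortex array, with signals that differed by 2.36 (SE 0.16, adjusted p = 2.06e-10) in the Tatdn1+/+ and 2.65 (SE 0.14, adjusted p = 5.08e-11) in the Tatdn1-/- mice. With cortex partly under background, the transcript was at least 4.64-fold and at least 4.65-fold higher in ventricle. Exog, whose product is a mitochondrial exonuclease and endonuclease of the same family, ranged from 2.14 to 3.46 (median 3.24) in Tatdn1+/+ ventricle, never above background, and from 4.27 to 5.62 (median 5.46) in cortex. It was lower in Tatdn1+/+ ventricle by a log2 difference of -2.19 (SE 0.24, adjusted p = 2.81e-07), and since the ventricle side was under background the transcript was at least 2.00-fold higher in cortex (means 5.27 and 3.08). In Tatdn1-/- mice it ranged from 2.28 to 3.67 (median 3.27) in ventricle and from 4.52 to 5.63 (median 5.31) in cortex, a difference of -2.02 (SE 0.22, adjusted p = 5.02e-07), at least 2.29-fold higher in cortex, where 5 of 6 arrays were above background. A bound of this kind sets the mean of the brighter tissue against the level at which signals on the dim arrays begin to pass background, or against the gene's own signal on arrays where that is higher. The arrays measure RNA of whole tissue, in which fewer cells of a type and less RNA per cell cannot be told apart, and the tissues differ in their cell types throughout.

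Aifm1 had the smallest spread of these genes in ventricle. It encodes apoptosis-inducing factor, a flavoprotein of the inner mitochondrial membrane that supports assembly of the respiratory chain and moves to the nucleus in some forms of cell death. Its signal ran from 8.59 to 8.81 (median 8.72) in Tatdn1+/+ ventricle and from 8.61 to 8.78 (median 8.74) in Tatdn1-/- ventricle. In cortex the ranges were 5.70 to 6.13 (median 5.90) and 4.87 to 5.83 (median 5.70), and the lowest of these was the array of M78-1 that stood apart. The tissues did not overlap and differed by 2.81 (SE 0.12, 7.01-fold, adjusted p = 3.06e-13) in the Tatdn1+/+ and by 3.14 (SE 0.15, 8.79-fold, adjusted p = 9.46e-12) in the Tatdn1-/- mice. Neither gene of the apoptotic DNase pair was called: Dffa, the inhibitor and chaperone of the caspase-activated DNase, had means of 5.54 ± 0.50 in ventricle and 5.59 ± 0.24 in cortex of Tatdn1+/+ mice (SD, n = 6), and Dffb was never above background.

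The sequences before the start sites of Endog, Exog and Aifm1 are shown because these 3 genes had the widest differences among the mitochondrial nucleases. Each window covers 250 bases before and 50 bases after an annotated start on GRCm38.p6, 5′ to 3′ on the gene's strand, and 32 of the 38 members matched such a window. For Aifm1 this start is that of the RefSeq gene. The RefSeq genes Endog and Exog start farther upstream, at chr2:30171408 and chr9:119444925, within the first 250 bases of their windows. Capitals mark matches, on either strand, to GCATGCGC (a form of the NRF1 site), CCGGAAG (ETS), TTTNGCGC (E2F), CCAAT (the CCAAT box) and AAGGTCA (a site of ERR nuclear receptors). The Endog window lies at chr2:30171274-30171573 (plus strand), the Exog window at chr9:119444710-119445009 (plus strand) and the Aifm1 window at chrX:48513514-48513813 (minus strand).
Endog: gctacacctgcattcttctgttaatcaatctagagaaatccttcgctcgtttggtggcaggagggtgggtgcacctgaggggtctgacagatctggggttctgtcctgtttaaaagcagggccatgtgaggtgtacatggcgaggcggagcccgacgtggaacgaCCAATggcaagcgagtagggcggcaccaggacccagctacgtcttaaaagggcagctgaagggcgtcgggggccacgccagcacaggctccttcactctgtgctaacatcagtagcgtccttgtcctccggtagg
Exog: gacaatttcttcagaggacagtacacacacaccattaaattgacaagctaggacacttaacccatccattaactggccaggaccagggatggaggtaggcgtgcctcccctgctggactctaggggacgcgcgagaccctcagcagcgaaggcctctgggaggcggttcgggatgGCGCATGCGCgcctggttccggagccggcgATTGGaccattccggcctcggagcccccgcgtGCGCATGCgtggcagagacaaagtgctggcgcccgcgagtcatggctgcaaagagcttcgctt
Aifm1: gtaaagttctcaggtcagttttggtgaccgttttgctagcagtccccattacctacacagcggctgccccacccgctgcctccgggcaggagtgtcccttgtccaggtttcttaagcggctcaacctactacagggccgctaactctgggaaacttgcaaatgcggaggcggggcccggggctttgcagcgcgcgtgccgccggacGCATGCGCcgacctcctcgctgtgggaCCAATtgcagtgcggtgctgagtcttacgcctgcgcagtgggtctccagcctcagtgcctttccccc

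In these letters Endog held a CCAAT box alone, Aifm1 1 NRF1 match and 1 CCAAT box, and Exog 3 NRF1 matches, 2 of which overlap, and 1 CCAAT box. NRF1, a transcription factor known for its sites in nuclear genes of mitochondrial proteins, had a match in the windows of 5 of the 32 members (15.62%: Aifm1, Dna2, Exog, Lig1 and Mlh3) against 2.71% of 32851 promoter windows of all genes. With a looser form, GCGC and GCGC around 2 free bases, 6 members had a match (18.75%) against 6.23% of all windows, and Aifm1 was not among them. The CCAAT box was found in 16 members (50%, against 37.41%), the ETS site in 6 (18.75%, against 8.86%), the E2F site in 3 (9.38%, against 1.38%) and the ERR site in 2 (6.25%, against 4.72%). These units differ: a member counts if any of its windows matches, while the shares over all genes are per window. The 32 members had 38 windows, of which 6 held the NRF1 site, 7 its looser form, 18 a CCAAT box, 6 the ETS, 3 the E2F and 2 the ERR site. The members' windows also held more CpG dinucleotides, with a median of 22.5 in the window with the most per gene against 8 over 27025 genes. Such a match describes the sequence and does not show that a factor binds there.

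The other DNases and the nucleotide-removing enzyme SAMHD1 were set apart by Dnase1l1. Dnase1l1 encodes a membrane-anchored relative of DNase I known for its expression in muscle. It ranged from 3.28 to 4.97 (median 4.32) in Tatdn1+/+ ventricle, above background on 3 of 6 arrays, and from 4.35 to 5.44 (median 4.70) in Tatdn1-/- ventricle, above background on all 6. In cortex it was never above background and ran from 0.91 to 2.33 (median 1.61) in Tatdn1+/+ and from 1.32 to 1.65 (median 1.46) in Tatdn1-/- mice. No cortex array reached the ventricle range, and Dnase1l1 was called higher in ventricle in the Tatdn1+/+ mice (means 4.30 and 1.59, adjusted p = 5.69e-08). As their ventricle signal itself passed background on 3 of 6 arrays only, no fold is given for them. The transcript was at least 1.88-fold higher in Tatdn1-/- ventricle (means 4.75 and 1.48, adjusted p = 9.43e-12). Samhd1, which encodes the triphosphohydrolase that depletes dNTPs in cells that do not divide, ranged from 5.93 to 6.64 (median 6.33) in Tatdn1+/+ ventricle and from 4.29 to 5.10 (median 4.48) in cortex. In Tatdn1-/- mice the ranges were 6.25 to 6.72 (median 6.42) and 3.29 to 4.65 (median 4.46), the lowest again on the cortex array of M78-1. Ventricle was higher without overlap, by 1.75 (SE 0.17, 3.36-fold, adjusted p = 3.83e-08) and 2.15 (SE 0.20, 4.42-fold, adjusted p = 5.43e-08). Dnase1l2 and Trex2 were called in the Tatdn1+/+ mice alone (adjusted p = 0.0377 and 0.00694), but both were under background on all 24 arrays, so no fold is given for them, and the call of Dnase1l2 was lost without M75-1, F76-2 or F76-3 (adjusted p 0.0740 to 0.157).

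**Figure D2:**
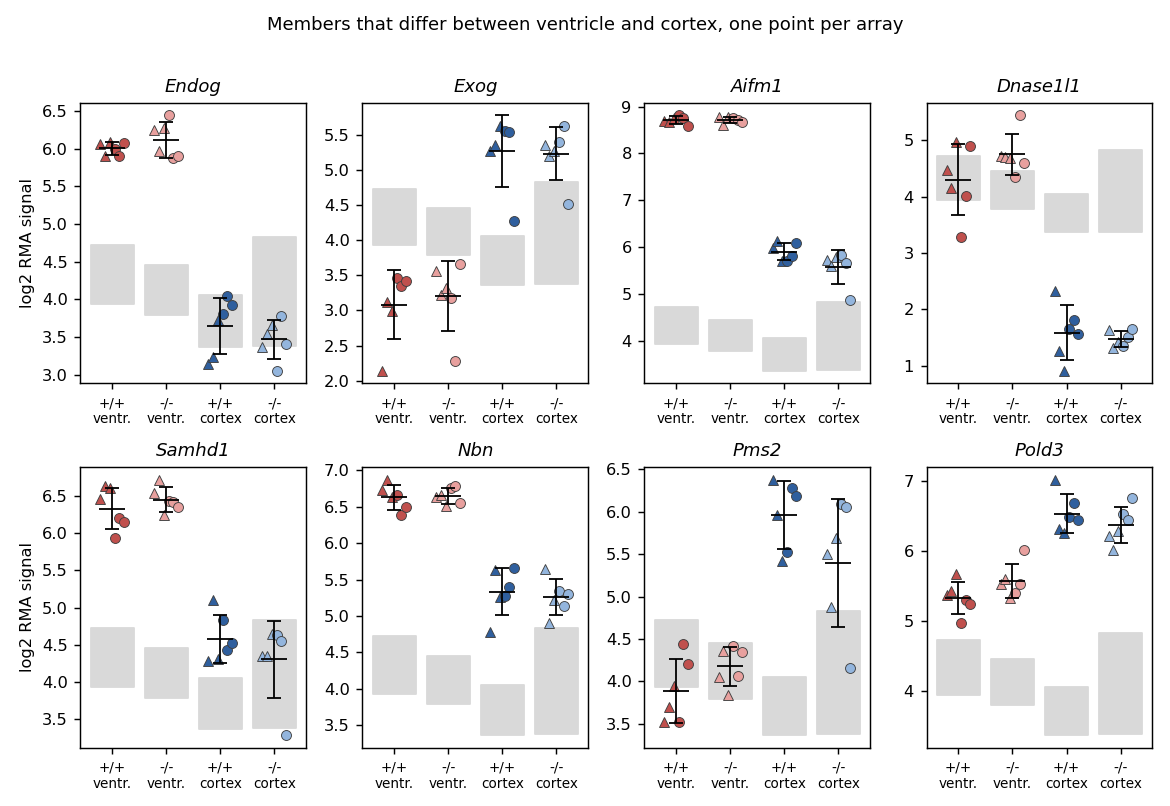
Log2 RMA signal (y axis) of 8 members on each array, by genotype and tissue; circles are males, triangles females, black bars the mean ± SD of 6 arrays, and grey bands the range of the background threshold over the arrays of that group. Endog, Aifm1, Dnase1l1, Samhd1 and Nbn are higher in ventricle without overlap in both genotypes, Exog is lower without overlap, and Pms2 and Pold3 are lower with overlap between the tissues in Tatdn1-/- mice.

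The 3 subunits of the MRE11-RAD50-NBN complex, which senses double-strand breaks and starts their resection, did not move together between tissues. Nbn, the subunit that recruits the ATM kinase, ranged from 6.39 to 6.87 (median 6.65) in Tatdn1+/+ ventricle and from 4.77 to 5.66 (median 5.33) in cortex, a difference of 1.30 (SE 0.15, 2.46-fold, adjusted p = 5.85e-07). Its ranges in Tatdn1-/- mice were 6.51 to 6.79 (median 6.65) and 4.90 to 5.65 (median 5.26), a difference of 1.39 (SE 0.12, 2.62-fold, adjusted p = 3.84e-08), and no array of one tissue reached the other in either genotype. Rad50, the ATPase subunit, ranged from 4.85 to 5.39 (median 5.24) in Tatdn1+/+ ventricle and from 5.35 to 5.91 (median 5.59) in cortex, overlapping ranges that differed by -0.45 (SE 0.14, adjusted p = 0.0104). In Tatdn1-/- mice Rad50 differed by -0.12 and was not called. The call in the Tatdn1+/+ mice was lost under quantile normalization (-0.20, adjusted p = 0.251), under median centring (-0.04, adjusted p = 0.821) and without mouse F76-1 (-0.32, adjusted p = 0.0560). Mre11a, the nuclease subunit, was above background on 2 of the 24 arrays and not called in either genotype, and the long-range resection nucleases Exo1 and Dna2 were never above background.

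Of the structure-specific endonucleases, Mus81 was called higher and Slx4 lower in ventricle in both genotypes. MUS81 cuts branched replication and recombination intermediates together with EME1, and SLX4 is the scaffold on which several of these nucleases assemble. Mus81 ranged from 4.38 to 5.03 (median 4.91) in Tatdn1+/+ ventricle and from 3.80 to 4.17 (median 3.87) in cortex, with no overlap and a difference of 0.92 (SE 0.13, 1.90-fold, adjusted p = 7.75e-06). In the Tatdn1-/- mice the ranges of 3.61 to 4.60 (median 4.29) and 3.41 to 4.21 (median 3.64) overlapped, and the difference of 0.47 (SE 0.18, adjusted p = 0.0366) was no longer called without the cortex array of M78-1 (0.42, adjusted p = 0.0674) or without mouse F77-2 or F77-3 (0.39 each, adjusted p = 0.130 and 0.124). Slx4 ranged from 2.65 to 3.75 (median 2.99) in Tatdn1+/+ ventricle, never above background, and from 3.32 to 5.05 (median 4.33) in cortex, above it on 5 of 6 arrays (adjusted p = 4.82e-04). The cortex mean of 4.27 was at the level where signals pass background, so no fold is given for the Tatdn1+/+ mice, and the transcript was at least 1.23-fold higher in Tatdn1-/- cortex (means 4.33 and 2.97, adjusted p = 4.90e-05). The nucleotide excision repair nucleases were split: Ercc4 (XPF) was lower in ventricle of Tatdn1+/+ mice alone (-0.53, SE 0.18, adjusted p = 0.0184), and its partner Ercc1 (0.63, SE 0.16, adjusted p = 0.00329) and Ercc5, for XPG (0.53, SE 0.11, adjusted p = 7.05e-04), were higher in ventricle of Tatdn1-/- mice alone. A call in 1 genotype alone is no difference between the genotypes, and none of these 3 had an unadjusted p under 0.05 in the test of that difference. Ercc4 lost its call under both scalings, by the exact Wilcoxon test and when M75-1, F76-3, F76-2 or M75-2 was left out (-0.50 to -0.46, adjusted p 0.0513 to 0.0699).

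The abasic site endonucleases cut the DNA backbone where a base has been lost. Apex1, the main enzyme of base excision repair at this step, had means of 4.08 ± 0.23 in ventricle and 4.08 ± 0.46 in cortex of Tatdn1+/+ mice (SD, n = 6) and was above background on 13 of the 24 arrays. Apex2, its weaker relative that is bound by PCNA, ranged from 3.82 to 4.64 (median 4.50) in ventricle and from 3.40 to 3.95 (median 3.74) in cortex of the Tatdn1+/+ mice, a difference of 0.66 (SE 0.16, adjusted p = 0.00169) with overlap. In the Tatdn1-/- mice the ranges were 3.97 to 5.06 (median 4.46) and 2.70 to 3.77 (median 3.48), a difference of 1.18 (SE 0.20, adjusted p = 8.13e-05) without overlap. Apex2 was above background on 16 of the 24 arrays. In Tatdn1-/- cortex it passed on 3 of 6, which allows only that the transcript was at least 1.515-fold higher in Tatdn1-/- ventricle.

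All 4 mismatch repair members had lower means in Tatdn1+/+ ventricle than in cortex, and 3 of them were called, with Pms2 the farthest apart in signal. MSH3 and MSH6 act in finding the mismatch, and PMS2 and MLH3 in the nicking of the strand that follows. Pms2 ranged from 3.52 to 4.44 (median 3.82) in Tatdn1+/+ ventricle, above background on 1 of 6 arrays, and from 5.42 to 6.38 (median 6.07) in cortex. In Tatdn1-/- mice it ranged from 3.83 to 4.41 (median 4.20) and from 4.16 to 6.09 (median 5.60), where the lowest cortex array, that of M78-1, fell within the ventricle range. The difference in signal was -2.07 (SE 0.20, adjusted p = 4.05e-08) in the Tatdn1+/+ mice, where the dim ventricle arrays allow only that the transcript was at least 3.13-fold higher in cortex. It was -1.22 (SE 0.27, adjusted p = 0.00101) in the Tatdn1-/- mice, with 5 of 6 arrays above background in each tissue. Msh3 ranged from 3.84 to 4.84 (median 4.47) in Tatdn1+/+ ventricle and from 4.56 to 5.23 (median 4.95) in cortex, a difference of -0.51 (SE 0.17, adjusted p = 0.0163), and differed by -0.39 in the Tatdn1-/- mice (SE 0.14, adjusted p = 0.0271), calls that were each lost without single mice (M75-0, F76-2 or F76-3, with adjusted p from 0.0568 to 0.0906, and M78-0, F77-1, F77-2 or F77-3, with 0.0520 to 0.119). Msh6 differed by -0.54 (SE 0.17, adjusted p = 0.0107) in the Tatdn1+/+ mice, with 2 of 6 ventricle arrays above background and a bound of at least 1.01-fold, and by 0.11 in the Tatdn1-/- mice, where it was not called. Mlh3 differed by -0.36 (adjusted p = 0.0796) and -0.10, and with arrays centred on their median its difference in the Tatdn1+/+ mice was 0.05. Under that centring Msh3 (-0.10) and Msh6 (-0.13) kept their sign and not their call, as they did under quantile normalization, and only Pms2 of the 4 remained called (-1.66, adjusted p = 7.58e-07).

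The window around an annotated Pms2 start, at chr5:143909751-143910050 (plus strand), is shown for the mismatch repair gene with the widest difference in signal. The RefSeq gene starts upstream of that start, at 143909901, within the window. The same motifs are in capitals, and the window held 3 CCAAT boxes, 1 ETS match and 1 ERR match.
Pms2: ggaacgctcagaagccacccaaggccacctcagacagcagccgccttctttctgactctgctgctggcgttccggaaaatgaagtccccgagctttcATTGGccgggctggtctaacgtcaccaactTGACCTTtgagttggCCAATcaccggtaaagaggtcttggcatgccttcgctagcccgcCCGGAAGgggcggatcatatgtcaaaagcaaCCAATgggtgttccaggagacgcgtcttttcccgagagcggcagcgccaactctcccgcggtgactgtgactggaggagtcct

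Lagging-strand factors, which cut, fill and seal the fragments made on that strand, were called in both directions. Rfc1, the large subunit of the clamp loader, ranged from 5.99 to 6.28 (median 6.21) in Tatdn1+/+ ventricle and from 4.42 to 5.78 (median 5.19) in cortex, a difference of 1.00 (SE 0.17, adjusted p = 7.02e-05), and differed by 1.12 in the Tatdn1-/- mice (SE 0.22, adjusted p = 2.90e-04). Pcna, the sliding clamp itself, was higher by 0.60 (SE 0.14, adjusted p = 0.00117) and 0.82 (SE 0.19, adjusted p = 0.00141). Rnaseh2b, an accessory subunit of the enzyme that removes ribonucleotides from DNA, ranged from 4.17 to 5.01 (median 4.59) in Tatdn1+/+ ventricle and from 3.35 to 3.95 (median 3.72) in cortex, and was higher by 0.84 in both genotypes (SE 0.16 and 0.14, adjusted p = 1.45e-04 and 7.99e-05). None of these 3 overlapped between the tissues in either genotype, and Rnaseh2b passed background in cortex on 2 of 6 Tatdn1+/+ and 4 of 6 Tatdn1-/- arrays. In the Tatdn1+/+ mice this allows only that the Rnaseh2b transcript was at least 1.73-fold higher in ventricle. Pold3, an accessory subunit of DNA polymerase delta, moved the other way: it ranged from 4.96 to 5.67 (median 5.33) in Tatdn1+/+ ventricle and from 6.27 to 7.03 (median 6.47) in cortex, a difference of -1.21 (SE 0.15, adjusted p = 1.38e-06), and differed by -0.81 in the Tatdn1-/- mice (SE 0.15, adjusted p = 1.41e-04). Fen1, the flap endonuclease that trims the fragments, ranged from 2.59 to 4.13 (median 3.42) in Tatdn1+/+ ventricle, never above background, and from 4.11 to 5.16 (median 4.57) in cortex. It was at least 1.26-fold higher in Tatdn1+/+ cortex (means 4.60 and 3.39, adjusted p = 1.19e-04), and at least 1.51-fold higher in Tatdn1-/- cortex, where it was above background on 5 of 6 arrays against 1 of 6 in ventricle (means 4.64 and 3.16, adjusted p = 8.05e-06). The polymerase subunit Pold1, called in Tatdn1-/- mice alone, and the ligase Lig1 were never above background, and Rnaseh2a, the catalytic RNase H2 subunit, was called in the Tatdn1-/- mice alone (0.45, SE 0.15, adjusted p = 0.0155), a call lost without M78-1 (0.39, adjusted p = 0.0528) or F77-2 (0.38, adjusted p = 0.0723).

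Genes of neighbouring pathways were also called in both directions. In Tatdn1+/+ mice, 10 of 32 other replication fork genes were higher and 6 lower in ventricle (16 and 5 in Tatdn1-/- mice), among them the primase gene Prim1 (-1.38) and the single-strand binding protein gene Rpa1 (0.86). Of 17 genes of base excision and single-strand break repair 7 were higher, including the uracil glycosylase gene Ung (1.75) and the ligase gene Lig3 (0.90), and 3 were lower (8 and 2 in Tatdn1-/- mice). Counts were 3 higher and 2 lower of 14 other nucleotide excision repair genes, 5 and 4 of 15 genes of strand break repair, and 5 and 4 of 13 genes of DNA sensing, and in the Tatdn1-/- mice 5 and 2, 7 and 2, and 4 and 4. Among 14 partners of apoptotic DNA fragmentation 7 were higher and 4 lower (8 and 3 in Tatdn1-/- mice), with Cidea (3.97), Diablo (2.26) and Cycs, for cytochrome c (1.76), the 3 with the smallest p. These lists are read against the same 29.3% of probe sets higher and 26.3% lower in the Tatdn1+/+ mice and 29.8% and 25.3% in the Tatdn1-/- mice, and no list was tested against another.

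No member was called between the genotypes in either tissue. In ventricle 0 of 38 members passed the adjusted test, where 3 of 22206 probe sets did (0.0135%), and in cortex 0 of 38, where 2 did (0.00901%). At an unadjusted p under 0.05 there were 4 members in ventricle (10.53%), where 8.46% of all probe sets were under that p, and 0 in cortex, where 6.98% were. The median difference of the members was 0.09 in ventricle (26 higher, 12 lower) and -0.07 in cortex (12 higher, 26 lower). Over all 22206 probe sets it was 0.02 in ventricle (12013 higher, 10193 lower) and -0.02 in cortex (10227 higher, 11979 lower). After centring, the split of the members was 22 higher and 16 lower in ventricle and 18 higher and 20 lower in cortex. The members' median difference in ventricle was 0.04 without mouse M75-0 and 0.04 without M77-1, and ran from 0.06 to 0.11 without each other mouse. The 95% interval of the difference lay within 1.5-fold either way for 26 members in ventricle (68.42%, against 71.13% of all probe sets) and for 31 in cortex (81.58%, against 79.68%), so for the remaining members a change of 1.5-fold lay within the interval.

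**Figure D3:**
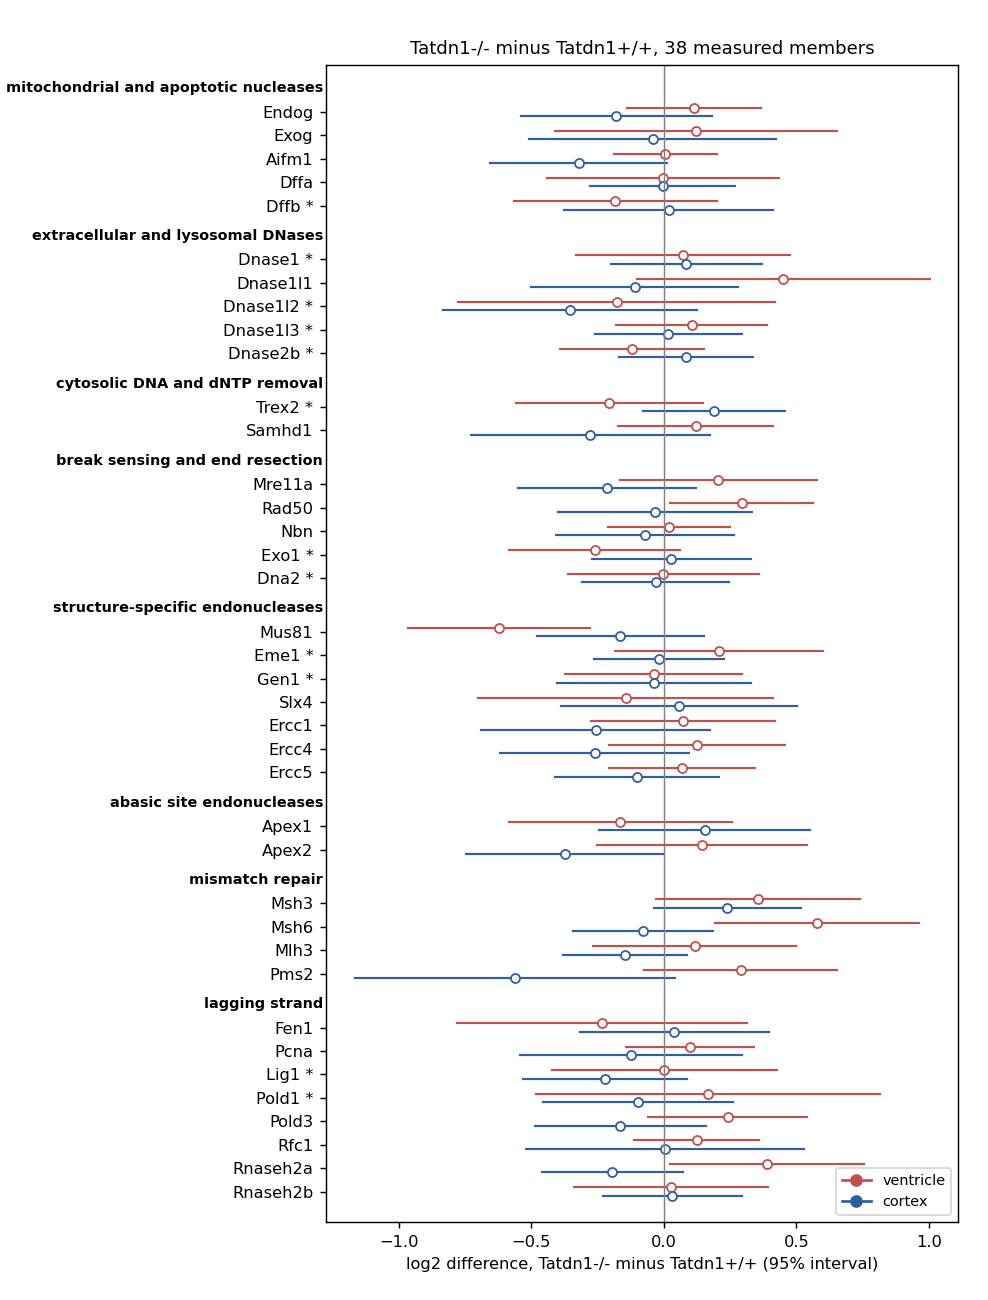
Log2 difference between Tatdn1-/- and Tatdn1+/+ mice (x axis) for the 38 measured members in ventricle (red) and cortex (blue), 6 arrays per group; points are means, lines 95% intervals of the limma fit, open points adjusted p of 0.05 or more, and an asterisk marks members never above background. All points are open, and the differences in ventricle run from -0.62 for Mus81 to 0.58 for Msh6.

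Mus81 and Msh6 had the smallest p in ventricle. Mus81 ranged from 4.38 to 5.03 (median 4.91) in the 6 Tatdn1+/+ and from 3.61 to 4.60 (median 4.29) in the 6 Tatdn1-/- ventricles. The groups overlapped through the lowest Tatdn1+/+ array, that of M75-1, and the difference was -0.62 (SE 0.16, 95% interval -0.96 to -0.28, unadjusted p = 0.00157, adjusted p = 0.308, exact two-sided permutation p = 0.00649). It was -0.63 in males and -0.61 in females, and in cortex the difference was -0.16. Msh6 ranged from 3.12 to 4.23 (median 3.84) in Tatdn1+/+ ventricle, above background on 2 of 6 arrays, and from 3.91 to 4.71 (median 4.42) in Tatdn1-/- ventricle, above background on 5 of 6. Its difference was 0.58 (SE 0.18, 95% interval 0.19 to 0.96, unadjusted p = 0.00596, adjusted p = 0.419, exact two-sided permutation p = 0.0130), with 0.93 in males and 0.22 in females. The lowest Tatdn1+/+ array of Msh6 was that of male M75-0. The same 6 Tatdn1+/+ ventricle arrays stand in the comparison of the tissues, where Msh6 was called in the Tatdn1+/+ mice and not in the Tatdn1-/- mice.

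Rad50 and Rnaseh2a followed, both with higher means in Tatdn1-/- ventricle. Rad50 ranged from 4.85 to 5.39 (median 5.24) and from 5.20 to 5.70 (median 5.46), a difference of 0.29 (SE 0.13, unadjusted p = 0.0343, adjusted p = 0.548) that was 0.10 in males and 0.49 in females. Rnaseh2a ranged from 4.46 to 5.23 (median 4.82) and from 4.81 to 5.65 (median 5.30), a difference of 0.39 (SE 0.17, unadjusted p = 0.0387, adjusted p = 0.562). Both groups overlapped in each case. The next members by p were Msh3 (0.36, unadjusted p = 0.0671) and Dnase1l1 (0.45, unadjusted p = 0.102). All 4 mismatch repair members had higher means in Tatdn1-/- ventricle, by 0.12 to 0.58, also under both other scalings, and none passed the test. Of all 22206 probe sets, 12013 had higher means there. In Tatdn1+/+ ventricle, Msh6 and Pms2 were above background on 2 and 1 of 6 arrays. In the same ventricles the mean of 9 neuron markers ran from 2.93 to 4.58 in Tatdn1-/- against 2.96 to 3.76 in Tatdn1+/+ mice, with 5 and 6 of the 9 never above background, and the mean of 7 fibroblast markers from 5.89 to 6.50 against 5.60 to 6.13, with none of them never above background. Their part in the values of the members was not tested.

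In cortex the smallest p belonged to Apex2, which ranged from 3.40 to 3.95 (median 3.74) in the Tatdn1+/+ and from 2.70 to 3.77 (median 3.48) in the Tatdn1-/- mice, a difference of -0.37 (SE 0.18, unadjusted p = 0.050, adjusted p = 0.708). Aifm1 differed by -0.32 (SE 0.16, adjusted p = 0.718) and Pms2 by -0.56 (SE 0.29, adjusted p = 0.731). The lowest Tatdn1-/- array of both was that of M78-1, and without it the differences were -0.18 for Aifm1 (adjusted p = 0.697) and -0.31 for Pms2 (adjusted p = 0.729). Msh3 (0.24), Dnase1l2 (-0.35) and Rnaseh2a (-0.19) followed, with adjusted p between 0.745 and 0.779. Dnase1l2 was under background throughout, and its difference was 0.06 among males alone and -0.53 without the cortex array of M78-1. Without that array, 0 members were called in cortex. In the same cortices all 6 measured oligodendrocyte markers had higher means in Tatdn1-/- mice (median difference 0.29, 0 called), their mean running from 7.56 to 8.11 against 7.35 to 8.19 in Tatdn1+/+ mice. All 5 measured striatum markers likewise had higher means (median difference 0.30, 0 called), running from 8.07 to 8.46 against 7.41 to 8.48, and every marker of both lists was above background on every cortex array. Their part in the values of the members was not tested.

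**Figure D4:**
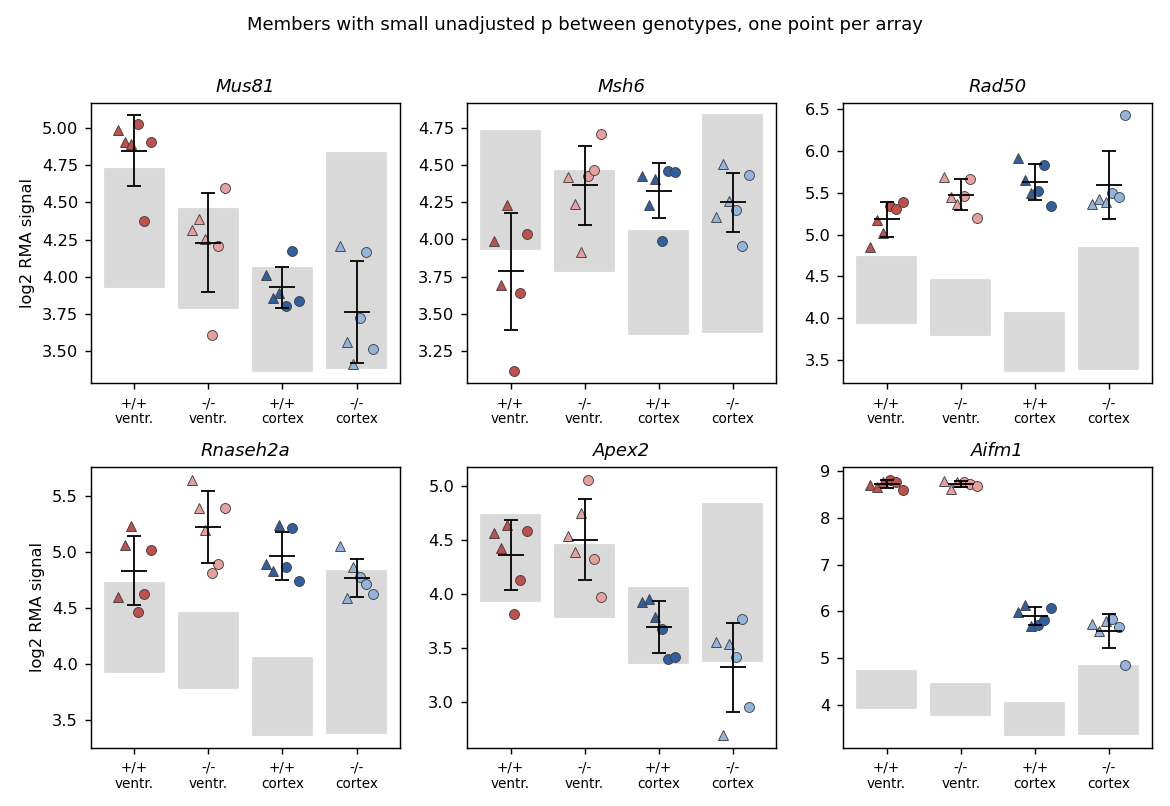
Log2 RMA signal (y axis) of 6 members with small unadjusted p between genotypes on each array; circles are males, triangles females, black bars the mean ± SD of 6 arrays, and grey bands the range of the background threshold over the arrays of that group. The Tatdn1+/+ and Tatdn1-/- arrays overlap in both tissues for all 6, including Mus81 in ventricle, where the lowest Tatdn1+/+ array lies at 4.38.

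The difference between the genotype effects of the tissues was tested in 1 fit over the 24 arrays. No member passed the adjusted test (0 of 38; 0.0135% of all probe sets), and 3 had an unadjusted p under 0.05, where 9.54% of all probe sets did. These were Msh6 (0.66, SE 0.22, adjusted p = 0.332), Rnaseh2a (0.58, SE 0.21, adjusted p = 0.374) and Pms2 (0.85, SE 0.35, adjusted p = 0.438), each with a difference that was more positive in ventricle than in cortex. For Pms2 the lowest Tatdn1-/- cortex array was that of M78-1, and its value ran from 0.47 to 1.01 over the settings run. Mus81 was the next by p (-0.46, SE 0.22, unadjusted p = 0.0505). With the mouse as a replicate block, the adjusted p of Msh6 was 0.350, and 0 members were called.

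Of the neighbouring lists no gene was called between genotypes in either tissue. The genes with the smallest adjusted p in ventricle were the RNA-editing enzyme gene Adar, of the DNA sensing list (0.35, adjusted p = 0.382), and Casp6, for an effector caspase (0.52, adjusted p = 0.388). In cortex they were Xrcc3, a gene of homologous recombination (0.51, adjusted p = 0.558), and Bcl2, which restrains apoptosis (-0.44, adjusted p = 0.621).

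No member was called between females and males. Over both genotypes, 0 of 38 members were called in ventricle (0.018% of all probe sets) and 0 in cortex (0.018%). At an unadjusted p under 0.05 there were 3 members in ventricle, where 5.56% of all probe sets were, and 1 in cortex, where 4.45% were. They were Samhd1 (0.29 higher in females, adjusted p = 0.854), Dnase1l2 (0.56 higher in females, adjusted p = 0.872) and Msh3 (-0.36, adjusted p = 0.890) in ventricle and Apex1 (-0.46, adjusted p = 0.967) in cortex. The X-linked members Aifm1, Trex2, Dnase1l1 and Apex2 were not among them.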

How the data were processed

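Total RNA of ventricle and cortex had been amplified, labelled with biotin and hybridised to Mouse Clariom S HT arrays. The deposited table holds log2 values that the authors made by RMA, which corrects background, normalizes between arrays and summarizes probes; the sources used here do not give its version or the set of arrays it was run on. The table has 29129 entries, of which 22206 are gene-level probe sets and entered the tests, and 6923 (controls among them) did not. Probe sets were named from the platform annotation, and 0 columns of other samples were used.

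Groups came from the sample labels. Differences, standard errors and 95% intervals were computed with limma 3.58.1 (lmFit and eBayes) in R 4.3.3, on the arrays each comparison is about, with Benjamini-Hochberg adjustment over all 22206 probe sets. The exact two-sided permutation test over 924 splits cannot give a p under 0.00216. Arrays have no read depth, and the number of mice limits the precision. Same-mouse ventricle and cortex arrays deviated from their group means with correlations of -0.08 to 0.046, so the pairing, which comes from the shared mouse codes, entered as an alternative. No 2 arrays were identical. Scripts were tested on simulated data.

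The members, the neighbouring gene lists and the tests were chosen with earlier results of these data known. The 38 measured members were described, with values per group for members called (at most 12 a comparison by smallest p, and at least 1 per role) and for the 6 members with the smallest p between genotypes, and at most 3 genes of each neighbouring list. Members named beside these rules were chosen after their values were seen. Motif letters were set after a looser NRF1 form had been counted. Alternatives were quantile normalization, median centring, a filter on the 30% dimmest probe sets, array weights, a variance trend, sex as a term, all 24 arrays in 1 fit, the exact Wilcoxon test, each sex alone, the mouse as a replicate block, each mouse left out, and, chosen after seeing the data, the cortex array of M78-1 left out. Python 3.11.15 with pandas 2.3.3 and matplotlib 3.10.9 counted motifs in RefSeq promoter windows and drew the figures.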

Additional observations from a re-analysis of the deposited data

Results flagged for a closer look

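Among 152 groups of 6 arrays (38 members in 4 groups), 14 held an array whose gap to its nearest neighbour took a larger part of the group's range than Dixon's 95% critical value, which chance passes in about 1 in 20 groups. Of these, 7 were the Tatdn1-/- cortex array of M78-1: it was low for Ercc1 (0.8763 of the range), Samhd1 (0.7809), Rfc1 (0.7645) and Aifm1 (0.7523) and high for Rad50 (0.8758), Dnase1l3 (0.7642) and Gen1 (0.6547). Rad50 read 6.43 on that array against a group median of 5.44, and Ercc1 read 3.25 against a median of 4.02. Without this array, Mus81 was no longer called between tissues in the Tatdn1-/- mice and Dnase2b was, and no genotype call was gained.

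Exog, low in ventricle throughout, had 1 array lower still in each ventricle group, that of F76-1 (0.6479; 2.14, group median 3.24) and that of M78-0 (0.6495; 2.28, group median 3.27), and a low cortex array in M75-2 (0.7442; 4.27, group median 5.46). In the ventricle of M78-0, Dnase1l1 was high (0.6643; 5.44, group median 4.70), and in its cortex Trex2 was low (0.6429). Mus81 was low in the ventricle of Tatdn1+/+ male M75-1 (0.7935; 4.38, group median 4.91), and Eme1, under background throughout, was high in the ventricle of F77-1 (0.7046).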

How the results depend on the processing

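No member was called between genotypes, in the test of the difference between tissues or between sexes under any setting run, while the number of all probe sets called ran from 0 to 24 in ventricle, 0 to 34 in cortex and 0 to 13 for the difference between tissues. Between tissues, quantile normalization left 5 members lower in the Tatdn1+/+ mice (Dnase1l2, Rad50, Ercc4, Msh3 and Msh6 lost their calls). Median centring gave 21 higher and 5 lower in the Tatdn1+/+ mice and 22 higher in the Tatdn1-/- mice. Leaving out 1 mouse at a time gave 18 to 20 members called in the Tatdn1+/+ mice (11 to 12 higher, 7 to 9 lower) and 17 to 20 in the Tatdn1-/- mice (12 to 15 higher, 5 to 6 lower), and 0 in the genotype, interaction and sex comparisons. With the mouse as a replicate block, 22 members were called in the Tatdn1+/+ mice, Pold1 being gained, and no call of a member was lost in either genotype. The difference of Dnase1l2 between genotypes in cortex changed sign among males alone (0.055). Since every member has 1 probe set, the mean over probe sets was not run. The causes of these changes were not tested. For the 12 members under background on every array no fold can be given. Where 3 or more of the 6 arrays of the dimmer group were under background, the array's floor allows a lower bound at most.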
